A study of Homo sapiens with 18 samples.

Results

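The 8 genes described here encode cytosolic and endosomal sensors of RNA and the adaptors through which they signal: DDX58, IFIH1, DHX58, MAVS, TRIM25, TLR3, EIF2AK2 and ADAR. They were chosen by name as a gene family, with earlier results of these data known but with no measured value in the rule, and were matched on the gene symbol of the count table, where RIG-I is written with its older symbol DDX58. All 8 of the 8 names were found among the 57500 genes of the table, and all 8 passed the filter on low counts that left 16994 genes for testing. DHX58 had 9 to 110 reads per library.

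RIG-I (DDX58) and MDA5 (IFIH1) are helicases that bind double-stranded RNA in the cytosol and signal through MAVS, an adaptor anchored in the outer mitochondrial membrane, to the kinases that switch on type I interferon genes. LGP2 (DHX58) is a related helicase without the signalling domain that modulates both, and TRIM25 is an E3 ubiquitin ligase implicated in RIG-I activation. TLR3 reads double-stranded RNA inside endosomes, PKR (EIF2AK2) halts translation by phosphorylating eIF2α when it binds double-stranded RNA, and ADAR (ADAR1) edits adenosines in double-stranded RNA and thereby limits its recognition as foreign. Most of these genes are themselves known targets of interferon signalling, and mitochondrial RNA is a known source of double-stranded RNA when it reaches the cytosol.

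The cells were IMR90, a diploid fibroblast line from human lung, and in the study's methods the line used for mitochondrial clearance overexpresses the ubiquitin ligase Parkin. The libraries form 6 groups of 3: proliferating cells (Prol), cells made senescent by irradiation (Sen (IR)), and irradiated cells whose mitochondria were cleared with the uncoupler CCCP (Sen (IR) + CCCP), either left at that or given acetate, mtDNA, or acetate and mtDNA. CCCP was applied from the day after irradiation, acetate was supplied from clearance onwards, and purified mtDNA was delivered with a DNA transfection reagent late in the culture. No group received the reagent alone or another DNA, so the effects of mtDNA, of DNA in general and of transfection cannot be told apart. Likewise no group received CCCP and kept its mitochondria, so the effects of CCCP itself and of mitochondrial loss cannot be told apart. The labels do not say whether the 3 libraries of a group came from separate cultures, and the study counts them as independent experiments. The p-values measure the spread between these libraries. In polyadenylated RNA from whole cultures, fewer cells expressing a gene and less of its RNA per cell cannot be told apart.

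Library depth ranged from 24624886 to 46224280 counted reads. Levels between libraries are given as CPM, in which each count is divided by its library total after TMM adjustment, and changes as log2 fold changes from edgeR's quasi-likelihood test with Benjamini-Hochberg adjustment over the 16994 genes, where an adjusted p under 0.05 is a call. The 13 protein-coding genes of the mitochondrial genome took 1.75 to 2.89% of the counts in cells that kept their mitochondria and 0.0461 to 0.237% in the 12 libraries treated with CCCP. The highest of these, 0.237%, was replicate 2 of the group given acetate and mtDNA, against 0.0640 and 0.0624% in the other libraries of that group. This library (combination replicate 2 below) also stood apart in most of the 8 genes, and results that rest on it are given with and without it. All 8 fibroblast markers (COL1A1, COL1A2, COL3A1, THY1, PDGFRB, VIM, LUM and DCN) were detected in every group, with summed levels of 37073 to 40792 CPM in Prol, 20345 to 25271 in Sen (IR) and 4709 to 6880 after CCCP. The 7 epithelial, leukocyte and endothelial markers summed to at most 5.49 CPM in any library. Markers of the cell cycle moved with the treatments: the proliferation gene MKI67 was at 59.1 ± 0.983 CPM (SD, n = 3) in Prol, 15.3 ± 2.21 in Sen (IR), 30.4 ± 1.81 after CCCP, 3.19 ± 0.424 with acetate and 26.1 ± 2.70 with mtDNA. The 5 cycle and senescence markers were MKI67, TOP2A, CCNA2, LMNB1 and CDKN1A. All 5 were called higher after depletion than in Sen (IR), against 34% of all genes tested. With acetate 4 were lower (28.3% of all genes) and CDKN1A was higher (28.8%). With mtDNA 1 was lower and 0 were higher, against 7.4% and 10.7% of all genes. The part of these markers and of the fibroblast markers in the results below was not tested.

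The promoters are shown for the members that rose with mtDNA and hold a match to the core of an interferon-stimulated response element. RefSeq promoter windows of 300 bases (250 before to 50 after the annotated start, GRCh38.p14) were found for 7 of the 8 members, and DHX58 had no entry. The core bound by interferon regulatory factors, AANNGAAA read on both strands, occurred in the windows of 5 of these 7 genes (DDX58, IFIH1, TRIM25, TLR3 and EIF2AK2) and in 22.8% of all 35116 promoter windows. The longer form with GA directly in front of the core, which is always also a core match, occurred in 3 of 7 (IFIH1, TLR3 and EIF2AK2) and in 3.57% of all windows. Neither form was found in the windows of MAVS and ADAR, which says only that these letters are not in these windows. The STAT site TTCNNNGAA was found in TLR3 alone among the 7 and in 7.66% of all windows. A TATAAA box was found in ADAR alone and in 11.5% of all windows. The stretches below run 5′ to 3′ on the strand of the gene, with core and longer matches in capitals.
DDX58, chr9:32526197-32526366, minus strand, the 170 bases before the start: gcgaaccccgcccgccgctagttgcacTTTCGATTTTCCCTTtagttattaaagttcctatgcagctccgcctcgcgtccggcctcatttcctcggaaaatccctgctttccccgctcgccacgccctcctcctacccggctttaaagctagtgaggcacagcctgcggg
IFIH1, chr2:162318685-162318854, minus strand, the 170 bases before the start: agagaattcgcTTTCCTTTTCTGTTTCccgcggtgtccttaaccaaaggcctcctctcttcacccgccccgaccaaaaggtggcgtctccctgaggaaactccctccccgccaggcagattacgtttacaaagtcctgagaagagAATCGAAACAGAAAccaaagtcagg
TLR3, chr4:186069136-186069165, plus strand, 20 bases before to 10 after the start: ttttttcaagctttacTTTCACTTTCgaga
EIF2AK2, chr2:37156971-37157000, minus strand, 20 bases before to 10 after the start: gcggagtccaagggGAAAACGAAActgaga
TRIM25, chr17:56914035-56914064, minus strand, 15 bases before to 15 after the start: tctcgagctaggTTTCGTTTcctcggcggc

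IFIH1 carried 4 core matches in 2 overlapping pairs, 1 pair on each strand, and DDX58 carried 3, of which 1 lies upstream of the stretch shown. In TRIM25, TLR3 and EIF2AK2 the match lay across the annotated start itself, from 3 to 6 bases before it. The genes occupy chr9:32455302-32526208 (DDX58, named RIGI in GENCODE), chr2:162267074-162318684 (IFIH1), chr17:42101404-42112714 (DHX58), chr20:3846799-3876123 (MAVS), chr17:56836387-56914080 (TRIM25), chr4:186068911-186088073 (TLR3), chr2:37099210-37157522 (EIF2AK2) and chr1:154581695-154628013 (ADAR) of GRCh38. DDX58 shares 43.2% of its exon bases with an overlapping gene model on the same strand that is not listed in the count table, and whether reads there were counted to it was not tested. Reads were counted by gene, so the interferon-inducible long form of ADAR and its constitutive short form are not separated.

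**Figure D1:**
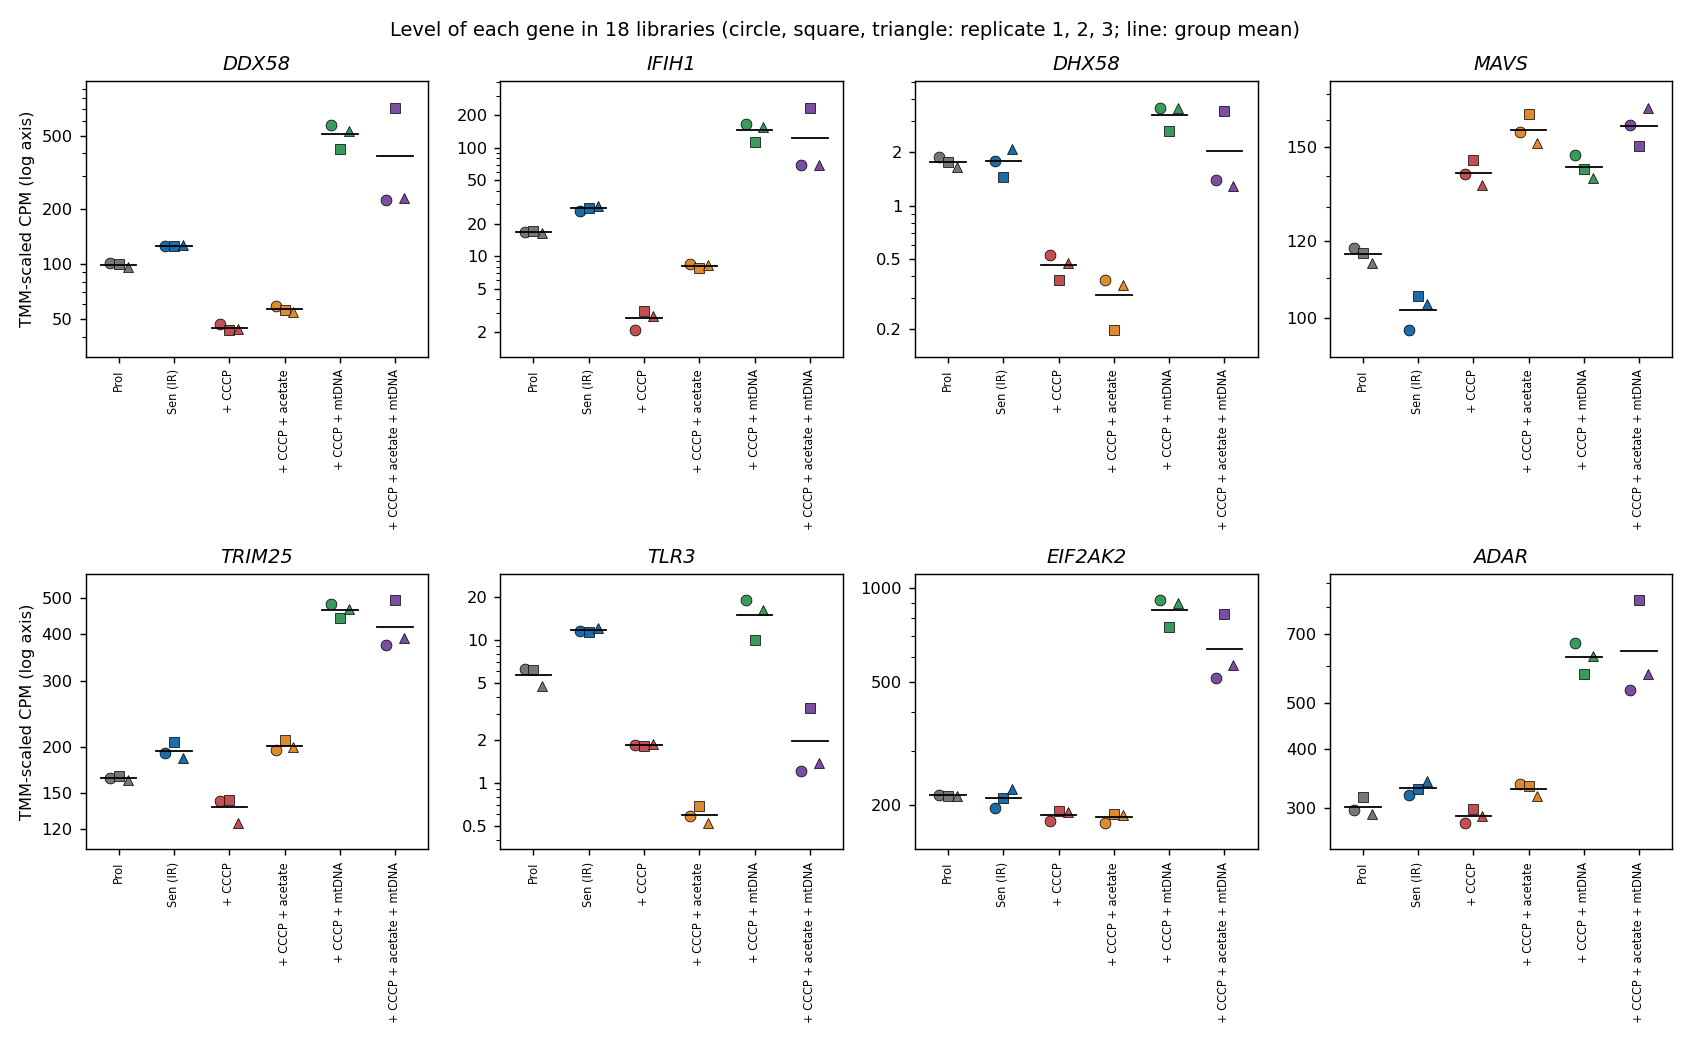
TMM-scaled CPM of each gene (log axis, a different range in each panel) in the 18 libraries by group, with the symbol shape marking the replicate number and the line the group mean of 3 libraries. In 7 of the 8 panels, all but MAVS, the 3 libraries given mtDNA lie above the 3 given CCCP alone, and combination replicate 2 (square in the last column) lies above the other libraries of its group in those panels.

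In Sen (IR) + CCCP, 5 of the 8 genes were called lower than in Sen (IR), and IFIH1 was lower by the most. Its level was 26.3, 27.9 and 28.8 CPM in Sen (IR) and 2.09, 3.13 and 2.79 CPM in Sen (IR) + CCCP, a 10.3-fold lower mean level (log2 fold change -3.36, SE 0.42, adjusted p = 3.2e-07). TLR3 went from 11.4, 11.3 and 12.2 CPM to 1.84, 1.79 and 1.85 CPM (log2 fold change -2.67, SE 0.24, adjusted p = 2.5e-09). DHX58 was 1.78, 1.46 and 2.10 CPM and then 0.530, 0.379 and 0.472 CPM (log2 fold change -1.96, SE 0.34, adjusted p = 3.2e-05). The groups did not overlap for any of these genes, nor for DDX58, which encodes RIG-I. DDX58 was 125, 125 and 127 CPM with mitochondria and 46.9, 43.5 and 44.2 CPM without (log2 fold change -1.48, SE 0.27, adjusted p = 6.2e-05). TRIM25 was 192, 205 and 187 CPM and then 143, 144 and 125 CPM, and fell by 0.50 on the log2 scale (SE 0.08, adjusted p = 5.6e-06). Its depleted libraries also lay below all 3 Sen (IR) libraries.

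MAVS, the mitochondrial adaptor itself, moved the other way and was the single member called higher. Its level was 97.1, 105 and 103 CPM in Sen (IR) and 141, 146 and 137 CPM in Sen (IR) + CCCP, a 1.39-fold higher mean (log2 fold change 0.47, SE 0.05, adjusted p = 1.0e-08). In this comparison 31.3% of all genes tested were called lower and 34% higher, and the median log2 fold change was -0.99 over the 8 genes and 0.03 over all genes tested. All 3 depleted libraries lay below all 3 Sen (IR) libraries for 7 members (32.3% of all genes) and above them for 1 (35.4%). EIF2AK2 and ADAR were lower in every depleted library, at log2 fold changes of -0.17 (SE 0.11, adjusted p = 0.18) and -0.20 (SE 0.10, adjusted p = 0.095), and did not pass the threshold. They did pass without combination replicate 2, which enters the fit through the shared spread, and then 7 of the 8 genes were called lower and 1 higher (30.4% and 34.6% of all genes).

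The direction of the small changes across depletion depended on the scale. In the authors' TPM every ratio of Sen (IR) + CCCP to Sen (IR) lay 0.43 higher on the log2 scale than in TMM-scaled CPM, for all 8 genes alike. On that scale TRIM25 was close to level at -0.07, EIF2AK2 and ADAR were higher at 0.25 and 0.23, and MAVS was higher at 0.90. IFIH1 at -2.95, TLR3 at -2.24, DHX58 at -1.53 and DDX58 at -1.06 remained lower on either scale.

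Fewer of the 8 genes were called between proliferating and senescent cells. TLR3 was 6.26, 6.15 and 4.73 CPM in Prol and 11.4, 11.3 and 12.2 CPM in Sen (IR), a 2.06-fold increase (log2 fold change 1.04, SE 0.21, adjusted p = 2.4e-04). TRIM25 rose 1.18-fold (log2 fold change 0.24, SE 0.08, adjusted p = 0.0099) and MAVS fell by 0.19 on the log2 scale (SE 0.05, adjusted p = 0.0016). These were the 2 genes called higher and the 1 called lower, against 26.7% and 29.9% of all genes tested. The libraries did not overlap for 5 members that were higher in Sen (IR) (28.5% of all genes) and 1 that was lower (32.1%). IFIH1 was 16.6, 17.3 and 16.4 CPM in Prol, below all 3 Sen (IR) libraries, with a log2 fold change of 0.72 (SE 0.33, adjusted p = 0.068). DDX58 was likewise higher in all 3 Sen (IR) libraries, by 0.35 (SE 0.27, adjusted p = 0.28). Without combination replicate 2 the calls numbered 4 higher and 1 lower (25.7% and 31.8% of all genes), with IFIH1 at 0.70 and DDX58 at 0.32 now called, and IFIH1 also passed without combination replicate 1 or 3. TRIM25 lost its call without Sen (IR) replicate 2 (0.18, adjusted p = 0.078).

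Compared with proliferating cells, mitochondria-depleted senescent cells were lower in 5 genes and higher in MAVS, against 34.1% and 35.1% of all genes. Libraries of the pair did not overlap for 6 lower members (36.1% of all genes) and 1 higher member (37.6%). The log2 fold changes were -2.64 for IFIH1, -1.94 for DHX58, -1.63 for TLR3, -1.14 for DDX58, -0.26 for TRIM25 and 0.28 for MAVS. TPM ratios lay 0.51 higher for this pair of groups, which turned TRIM25 to 0.25 and left the others in the same direction. Both comparisons with Sen (IR) + CCCP share its 3 libraries. EIF2AK2, at -0.21 (SE 0.11, adjusted p = 0.11), was called lower without combination replicate 1 or 2, and lay at 0.30 in TPM.

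The change with mtDNA was read in Sen (IR) + CCCP cells transfected with it, against Sen (IR) + CCCP cells that were not transfected. With mtDNA, 7 of the 8 genes rose and none fell, against 10.7% and 7.4% of all genes tested. Their median log2 fold change was 2.51, and that of all genes tested was 0.00. The treated libraries lay above all untreated ones for 7 members (20.1% of all genes) and below them for 0 (17.4%). The largest rise was in IFIH1, from 2.09, 3.13 and 2.79 CPM to 166, 114 and 157 CPM. This is a 54.3-fold higher level (log2 fold change 5.76, SE 0.40, adjusted p = 1.1e-09), and the lowest treated library was far above the highest untreated library.

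RIG-I and LGP2 followed MDA5. DDX58 was 46.9, 43.5 and 44.2 CPM without mtDNA and 572, 422 and 533 CPM with it (11.3-fold, log2 fold change 3.50, SE 0.29, adjusted p = 1.2e-08). DHX58 was 0.530, 0.379 and 0.472 CPM and 3.58, 2.66 and 3.55 CPM (7.10-fold, log2 fold change 2.83, SE 0.32, adjusted p = 1.2e-06). In both genes replicate 2 was the lowest of the treated libraries and still above every untreated library. TLR3, the endosomal receptor, reached 18.8, 9.99 and 16.1 CPM from 1.84, 1.79 and 1.85 CPM (8.19-fold, log2 fold change 3.03, SE 0.24, adjusted p = 6.3e-09).

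Smaller changes from higher starting levels were seen in EIF2AK2, TRIM25 and ADAR. EIF2AK2, encoding PKR, was 178, 192 and 190 CPM without mtDNA and 914, 753 and 894 CPM with it (4.57-fold, log2 fold change 2.19, SE 0.12, adjusted p = 2.5e-11). TRIM25 was 143, 144 and 125 CPM and 481, 443 and 466 CPM (3.37-fold, log2 fold change 1.75, SE 0.08, adjusted p = 1.5e-12). ADAR was 279, 298 and 288 CPM and 673, 578 and 631 CPM (2.18-fold, log2 fold change 1.12, SE 0.10, adjusted p = 4.6e-08). The treated and untreated libraries did not overlap for any of these genes. MAVS was the exception, at 141, 146 and 137 CPM without mtDNA and 147, 143 and 140 CPM with it. Its log2 fold change was 0.02 (SE 0.05, 95% interval -0.07 to 0.11, adjusted p = 0.83), and its libraries overlapped.

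Levels with mtDNA exceeded those of senescent cells that had kept their mitochondria for most of the genes. Against Sen (IR), 7 of the 8 genes were higher and none lower (35% and 32.5% of all genes), with EIF2AK2 4.05-fold, DDX58 4.06-fold and IFIH1 5.27-fold higher. TRIM25 was 2.38-fold, ADAR 1.90-fold, DHX58 1.83-fold and MAVS 1.40-fold higher. The same 7 did not overlap with Sen (IR) (35.8% of all genes lay above and 32.9% below). TLR3 was the gene that came closest to the Sen (IR) level, at a log2 fold change of 0.37 (SE 0.19, adjusted p = 0.10), with libraries at 9.99 to 18.8 CPM around the Sen (IR) values. It passed without mtDNA replicate 2 (0.60, adjusted p = 0.0060) and without combination replicate 2 (0.38, adjusted p = 0.020). In TPM these ratios lay 0.35 higher on the log2 scale.

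Acetate alone moved the sensors in different directions. IFIH1 rose from 2.09, 3.13 and 2.79 CPM to 8.50, 7.75 and 8.40 CPM (3.06-fold, log2 fold change 1.61, SE 0.47, adjusted p = 0.0053). TLR3 fell from 1.84, 1.79 and 1.85 CPM to 0.588, 0.683 and 0.525 CPM, or from 51 to 71 reads per library to 17 to 31 (log2 fold change -1.60, SE 0.36, adjusted p = 6.5e-04). The groups were apart for both genes, so acetate raised a cytosolic sensor and lowered the endosomal sensor in the same libraries. TRIM25 rose from 143, 144 and 125 CPM to 196, 208 and 200 CPM (1.46-fold, log2 fold change 0.55, SE 0.08, adjusted p = 2.2e-06). MAVS rose 1.11-fold (log2 fold change 0.15, SE 0.05, adjusted p = 0.0094). In all, 3 genes were called higher and 1 lower, against 28.8% and 28.3% of all genes tested, and the median log2 fold change was 0.17 over the 8 genes and 0.01 over all. The libraries did not overlap for 5 members higher with acetate (33.2% of all genes) and 1 lower (32.8%). On the TPM scale these ratios lay 0.10 lower, which left MAVS at 0.05.

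For the other 4 genes no change with acetate was called. DDX58 was higher in each of the 3 acetate libraries, at 58.9, 55.9 and 54.2 CPM (log2 fold change 0.33, SE 0.27, adjusted p = 0.32), as was ADAR at 336, 333 and 317 CPM (0.19, SE 0.10, adjusted p = 0.11). Both were called without combination replicate 2, at 0.34 and 0.20, which gave 5 genes higher and 1 lower (30.2% and 27.9% of all genes), and ADAR also passed without combination replicate 1 (0.21). EIF2AK2 stayed within 176 to 188 CPM, overlapping the untreated libraries (log2 fold change -0.03, 95% interval -0.25 to 0.19). DHX58 was at 9 to 17 reads per library with acetate, and its log2 fold change of -0.58 had a 95% interval of -1.46 to 0.30.

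**Figure D2:**
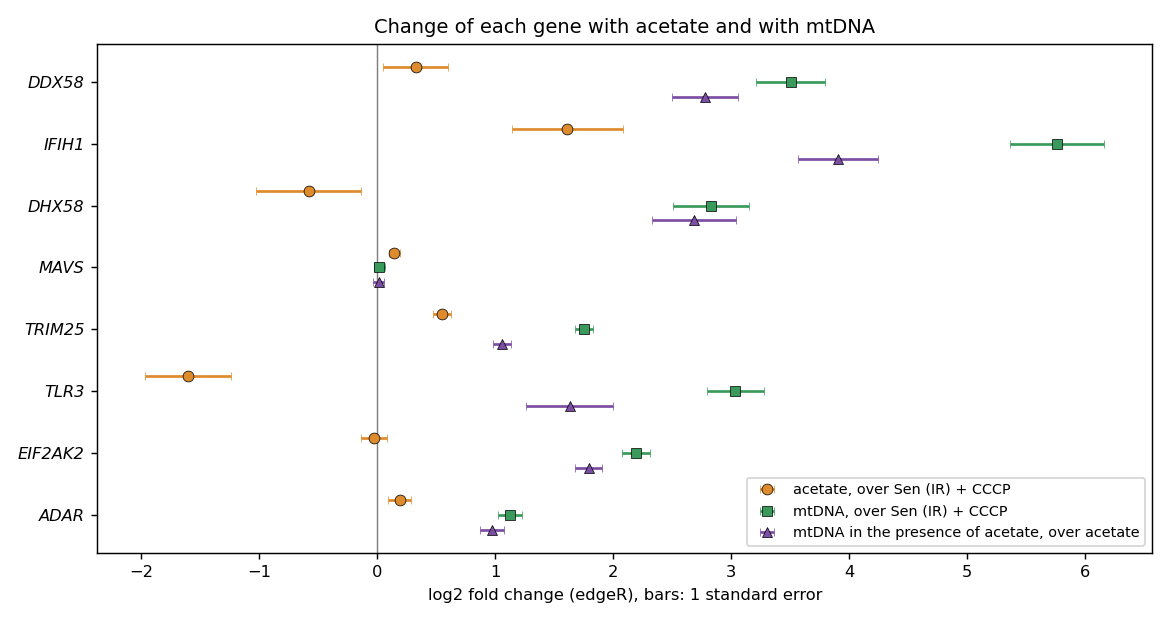
Log2 fold change of each gene, with bars of 1 standard error, for acetate over Sen (IR) + CCCP (circles), mtDNA over Sen (IR) + CCCP (squares), and mtDNA in the presence of acetate over acetate (triangles). The squares lie between 1.12 and 5.76 for all genes but MAVS at 0.02, whereas acetate alone gave 1.61 for IFIH1 and -1.60 for TLR3.

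In the presence of acetate, mtDNA again raised 7 of the 8 genes and lowered none, against 6.57% and 6% of all genes tested. The median log2 fold change over the 8 genes was 1.71, and all libraries lay above those with acetate for 7 members (16.1% of all genes) and below for 0 (15.2%). IFIH1 was 68.7, 234 and 68.7 CPM with acetate and mtDNA (log2 fold change 3.90, SE 0.34, adjusted p = 1.0e-07). DDX58 was 224, 710 and 229 CPM (6.87-fold, log2 fold change 2.78, SE 0.28, adjusted p = 8.0e-07). Replicate 2 was more than 3 times as high as the mean of the other libraries in both, by 3.40 and 3.14 times. Without it the changes remained called, at 3.07 for IFIH1 (8.38-fold) and 2.01 for DDX58 (4.02-fold).

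The remaining genes rose as well over acetate. DHX58 was 1.39, 3.44 and 1.30 CPM (log2 fold change 2.68, SE 0.36, adjusted p = 2.7e-05), and EIF2AK2 was 514, 829 and 565 CPM (1.79, SE 0.12, adjusted p = 6.0e-09). TRIM25 was 374, 493 and 392 CPM (1.06, SE 0.08, adjusted p = 1.0e-08), and ADAR was 534, 827 and 577 CPM (0.97, SE 0.10, adjusted p = 1.2e-06). Each of these libraries lay above the 3 acetate libraries. TLR3 was 1.20, 3.32 and 1.37 CPM against 0.588, 0.683 and 0.525 CPM (log2 fold change 1.63, SE 0.37, adjusted p = 0.0052), and stayed called at 1.08 without replicate 2 (adjusted p = 0.043). MAVS was 158, 151 and 165 CPM, with a log2 fold change of 0.01 (95% interval -0.08 to 0.10).

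Against Sen (IR) + CCCP the group given acetate and mtDNA was higher in 7 genes, including MAVS at 0.16 (SE 0.05, adjusted p = 0.0050), and lower in none (30.3% and 31.4% of all genes). The same 7 did not overlap in CPM (31.9% of all genes lay above and 34.3% below). In TPM the MAVS ratio was 0.03 on the log2 scale, and its libraries overlapped. IFIH1 was 45.8-fold and DDX58 8.62-fold higher, or 25.9-fold and 5.09-fold higher without combination replicate 2. TLR3 was the member not called, at a log2 fold change of 0.03 (95% interval -0.58 to 0.64), or -0.50 without that library (adjusted p = 0.13).

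Relative to Sen (IR), 6 genes were higher with acetate and mtDNA and TLR3 was 6.22-fold lower (32.2% and 34.7% of all genes; log2 fold change -2.64, SE 0.25, adjusted p = 4.1e-09). The higher genes were IFIH1 at 2.15, DDX58 at 1.63, EIF2AK2 at 1.59, TRIM25 at 1.11, ADAR at 0.97 and MAVS at 0.63, and DHX58 was at 0.15 (adjusted p = 0.66). Those 6 lay above all Sen (IR) libraries (32.1% of all genes) and TLR3 below them (34.3%). IFIH1 and DDX58 stood at 1.35 and 0.88 without combination replicate 2.

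Adding acetate to mtDNA changed TLR3 by the most. TLR3 was 18.8, 9.99 and 16.1 CPM with mtDNA and 1.20, 3.32 and 1.37 CPM with acetate and mtDNA, an 8.02-fold lower level with no overlap (log2 fold change -3.00, SE 0.25, adjusted p = 8.9e-10). EIF2AK2 was 1.34-fold lower (log2 fold change -0.43, SE 0.11, adjusted p = 0.0025) and DHX58 1.65-fold lower (-0.72, SE 0.26, adjusted p = 0.024), with overlapping libraries in both. MAVS was higher by 0.14 (SE 0.05, adjusted p = 0.013). Thus 3 genes were called lower and 1 higher, against 29.9% and 27.4% of all genes tested. The libraries did not overlap in CPM for TLR3, which was lower (31.8% of all genes), and MAVS, which was higher (29.5%). In TPM MAVS was higher by 0.08 on the log2 scale, and its libraries overlapped. DHX58 lost its call without mtDNA replicate 1 or 3 (-0.64 in each case) and without combination replicate 1 (-0.47) or 3 (-0.48).

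Combination replicate 2 decided this comparison for the remaining genes. With all libraries DDX58 was at -0.40 (adjusted p = 0.20), IFIH1 at -0.24 (adjusted p = 0.48), TRIM25 at -0.14 (adjusted p = 0.11) and ADAR at 0.04 (adjusted p = 0.75). Without that library they were called lower, at -1.15 for DDX58, -1.07 for IFIH1, -0.26 for TRIM25 and -0.16 for ADAR, so that 7 of the 8 genes were lower and MAVS was higher (27.5% and 26.5% of all genes). TLR3 was then at -3.54, DHX58 at -1.26 and EIF2AK2 at -0.65. The share of mitochondrial transcripts in that library, 0.237%, was also the highest in its group. Whether it plays a part in the levels of these genes was not tested.

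A test of the interaction asked whether the change with mtDNA differed between cells with and without acetate. TRIM25 was the single member called, at -0.69 on the log2 scale (SE 0.11, adjusted p = 0.0025), against 0.583% of all genes called lower and 0.0765% called higher. It rose 3.37-fold with mtDNA in the absence of acetate and 2.08-fold in its presence, from a level that acetate had already raised. The other estimates were -1.86 for IFIH1 (SE 0.55, adjusted p = 0.14), -1.40 for TLR3 (SE 0.47, adjusted p = 0.22), -0.72 for DDX58 (SE 0.38, adjusted p = 0.48) and -0.40 for EIF2AK2 (SE 0.16, adjusted p = 0.32). ADAR at -0.15, DHX58 at -0.14 and MAVS at -0.01 had intervals that included 0.

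Without combination replicate 2, 6 of the 8 genes were called lower in the interaction, against 1.89% of all genes. These were IFIH1 at -2.69 (SE 0.18, adjusted p = 7.4e-10), TLR3 at -1.95 (SE 0.40, adjusted p = 0.0044), DDX58 at -1.49 (SE 0.11, adjusted p = 1.3e-09), TRIM25 at -0.82 (SE 0.08, adjusted p = 1.1e-07), EIF2AK2 at -0.64 (SE 0.09, adjusted p = 6.9e-05) and ADAR at -0.37 (SE 0.08, adjusted p = 0.0067). With 2 libraries left in the combination group, these values rest on the agreement of those libraries with each other.

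**Figure D3:**
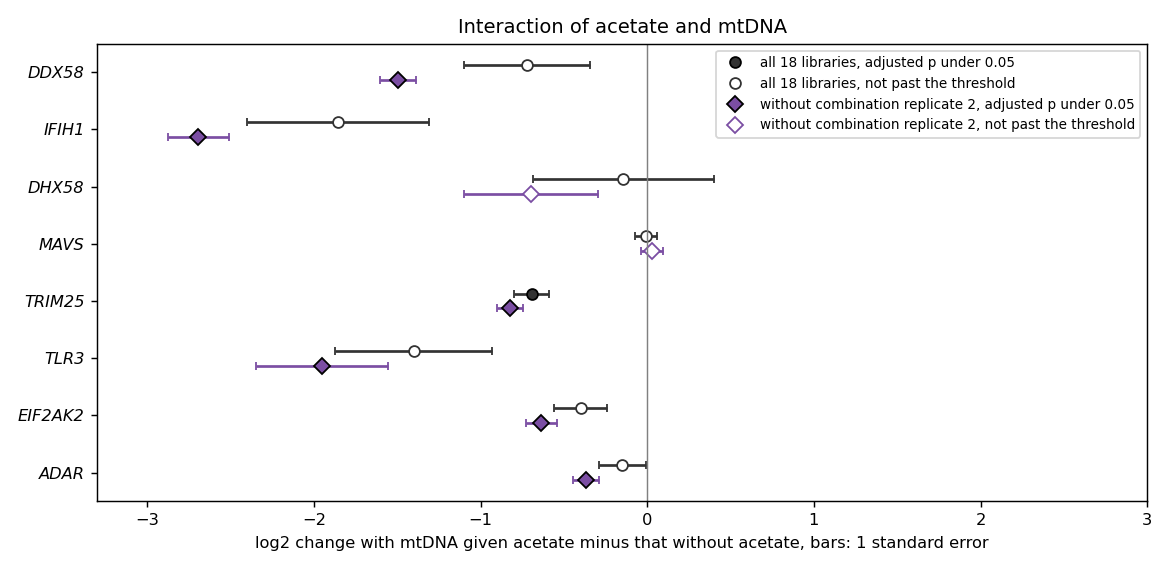
Interaction of acetate and mtDNA for each gene, as the log2 change with mtDNA given acetate minus that without acetate, with bars of 1 standard error, for all 18 libraries (circles) and without combination replicate 2 (diamonds). Filled symbols passed the threshold: TRIM25 with all libraries, and 6 of the 8 genes without that library.

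The abundance of the members differed widely. Per length, in the authors' TPM, ADAR had the highest mean level in Prol (136 ± 8.55, SD, n = 3), Sen (IR) (157 ± 7.53), Sen (IR) + CCCP (185 ± 5.45) and the acetate group (197 ± 6.19). DDX58 had the highest level with mtDNA, at 595 ± 90.6 TPM, followed by EIF2AK2 at 404 ± 41.3, ADAR at 382 ± 28.3 and TRIM25 at 354 ± 14.0. MAVS lay between 34.5 and 66.5 TPM in all 6 groups. DHX58 and TLR3 were the least abundant in every group, at 0.405 to 4.32 and 0.446 to 11.3 TPM. IFIH1 moved from the 26.5th percentile of the tested genes in Sen (IR) + CCCP to the 92.4th percentile with mtDNA, and DDX58 from the 76.8th to the 98.7th.

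**Figure D4:**
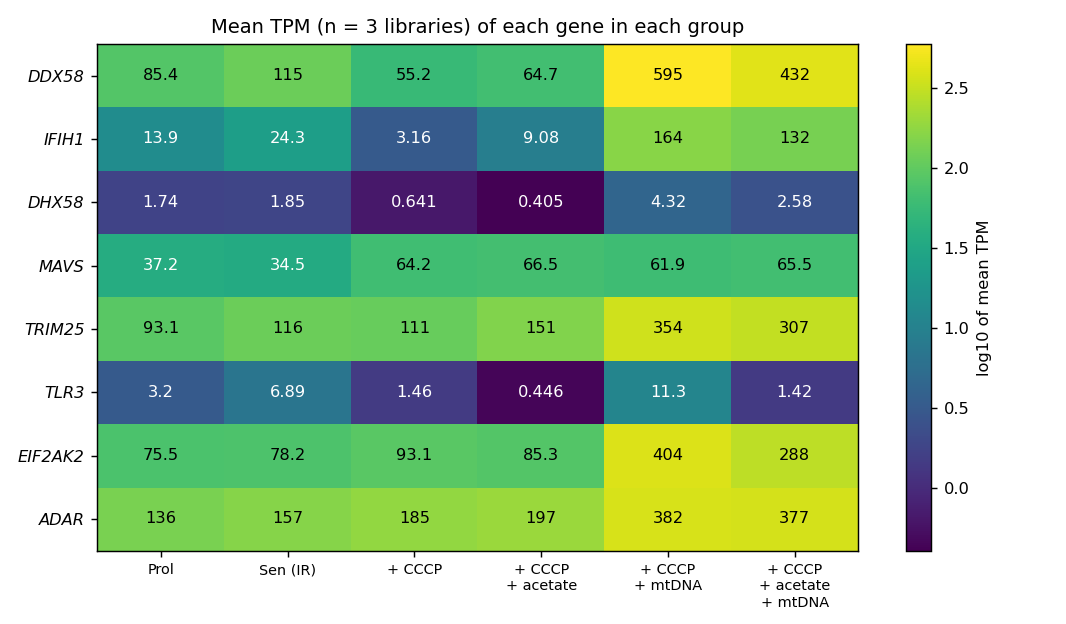
Mean TPM of each gene (rows) in each group (columns, n = 3 libraries), coloured by its log10. DDX58 and EIF2AK2 reach 595 and 404 TPM with mtDNA, MAVS stays between 34.5 and 66.5 TPM, and TLR3 goes from 11.3 TPM with mtDNA to 1.42 TPM with acetate and mtDNA.

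Over the 6 groups the order of levels, in CPM, was mtDNA, acetate and mtDNA, Sen (IR), Prol, acetate and CCCP alone for DDX58 and IFIH1. The libraries of the leading pair overlapped, and no other neighbours did. TLR3 followed another order, with mtDNA and Sen (IR) overlapping at the top and the combination overlapping CCCP alone near the bottom. MAVS was highest in the combination and acetate groups, which overlapped, and lowest in Sen (IR). Across the 18 libraries, which share groups, treatments and mitochondrial content, Pearson's r of log2 levels was 0.98 between DDX58 and IFIH1, 0.97 between EIF2AK2 and ADAR and 0.97 between TRIM25 and ADAR. It was 0.57 between DDX58 and TLR3, 0.10 between DDX58 and MAVS and -0.64 between MAVS and TLR3.

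The genes most like each member over the 18 libraries were, for DDX58, ZNFX1, SP110 and SP100 (r of 0.99 each), and for IFIH1, PARP14, PARP12 and HELZ2 (0.98 to 0.99). For DHX58 they were PARP10, PML and SAMHD1 (0.97 to 0.98), and for EIF2AK2, PLSCR1, TRIM69 and HERC5 (0.98 each). TRIM25 was closest to PPM1K, PMAIP1 and PLSCR1 (0.96 to 0.97), and ADAR to GTPBP1, PLSCR1 and PPM1K (0.96 to 0.97). TLR3 was closest to CD69, TMEM62 and APOBEC3G (0.96 to 0.97), and MAVS to BCOR, IARS and IL11 (0.99 each).

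The gene of interferon-β, a type I interferon, was read at a low level in the mtDNA groups. Which sensor led to its expression was not tested, nor whether interferon raised the genes described here. IFNB1 had 0 reads in all 12 libraries without mtDNA, 25, 32 and 28 reads with mtDNA, and 4, 30 and 6 reads with acetate and mtDNA, where replicate 2 was again the high library. Set against a floor of 3 reads over the 3 libraries of the untreated group, its level was at least 33.9-fold higher with mtDNA. With acetate and mtDNA it was at least 21.0-fold higher than with acetate, or 6.49-fold without combination replicate 2. Of the 16 interferon, receptor and signalling genes listed, 10 were tested, and with mtDNA 5 rose and 0 fell (10.7% and 7.4% of all genes; median log2 fold change 0.09). Of these 5, IFNB1 passed the filter on low counts only through libraries given mtDNA, so its rise was fixed in advance. Beside IFNB1 the genes that rose included the interferon-response factors IRF9 (2.91-fold) and STAT2 (2.84-fold) and the kinase JAK1 (log2 fold change 0.14). The receptor chain IFNAR2 fell with senescence by 0.67 on the log2 scale and rose 1.69-fold with acetate.

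Among the regulators of RIG-I and MDA5, 10 of 28 genes rose with mtDNA and 0 fell (10.7% and 7.4% of all genes). OASL, a RIG-I enhancer, went from 0.107 ± 0.00547 to 60.7 ± 13.5 CPM (SD, n = 3), and DDX60, a helicase that promotes signalling by RIG-I, rose 13.7-fold. NLRC5 (3.97-fold), ZNFX1 (3.75-fold) and ZC3HAV1 (2.98-fold) followed, and the other 5, among them the RIG-I ligase RNF135 (1.24-fold), rose by 1.11-fold to 1.24-fold. The median log2 fold change was 0.06 over the list and 0.00 over all genes. OASL rose with senescence (4.81-fold, SE 0.79 on the log2 scale, adjusted p = 0.018). After depletion OASL fell by 4.56 on the log2 scale (SE 1.07, adjusted p = 7.6e-04), to the 0.107 CPM given above. At that level the size of its fall is imprecise. SEC14L1 fell with senescence by 0.73 and was 1.95-fold higher after depletion. With acetate the deubiquitinase CYLD rose 2.09-fold and RNF125, a ligase that degrades RIG-I, was 5.15-fold lower, at levels under 1 CPM.

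Downstream of MAVS, 9 of 21 adaptor, kinase and factor genes rose with mtDNA and 0 fell (10.7% and 7.4% of all genes). IRF7, a factor that amplifies interferon expression, rose 21.3-fold from 0.727 to 15.3 CPM, and the other 8 rose by 1.18-fold to the 1.55-fold of the adaptor AZI2, with a list median of 0.23. After depletion the kinase gene IKBKE was 4.49-fold lower and RELA 1.49-fold higher. Acetate raised TRAF3 1.98-fold and lowered RIPK1 by 0.30 on the log2 scale. TRAF5 was 2.18-fold lower in senescent than in proliferating cells.

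In the list for the endosomal nucleic acid TLRs, 7 of 10 genes were tested, and with mtDNA 4 rose and 0 fell (10.7% and 7.4% of all genes). The largest rises were in MYD88 (3.68-fold), the adaptor of the nucleic acid TLRs other than TLR3, and UNC93B1 (2.96-fold), which carries these receptors to endosomes. The list median was 0.22. With acetate alone MYD88 was 1.80-fold lower and UNC93B1 1.67-fold higher. After depletion IRAK1 was 2.41-fold higher and the chaperone HSP90B1 4.04-fold lower, and IRAK4 was 1.21-fold lower in Sen (IR) than in Prol.

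Among the other genes of the PKR and eIF2 pathway, 1 of 17 rose with mtDNA (the eIF2α phosphatase subunit PPP1R15A, 1.34-fold) and 1 fell, against 10.7% and 7.4% of all genes, and the median was close to 0. PPP1R15A had already been 2.65-fold higher after depletion, and the eIF2α kinase EIF2AK3 was 1.77-fold lower there. With acetate EIF2AK4 rose 1.36-fold and TARBP2, a partner of PKR, was 1.58-fold lower. In Sen (IR) the PKR inhibitor DNAJC3 was 1.66-fold higher than in Prol.

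Of the 8 relatives of ADAR and genes of the Z-form RNA pathway, 5 were tested, and with mtDNA 2 rose, including MLKL (2.39-fold), and 0 fell (10.7% and 7.4% of all genes), with a median of 0.16. ADARB1, the other catalytically active editor, was 4.72-fold lower in Sen (IR) than in Prol and 3.63-fold higher after depletion. MLKL rose 1.49-fold with senescence. Among 9 other RNA helicases and proposed sensors, DDX60L (6.03-fold) and LRRFIP1 (1.15-fold) rose with mtDNA and 0 fell (10.7% and 7.4% of all genes, median 0.04). DDX21 rose with senescence (1.29-fold) and after depletion (1.74-fold) and fell with acetate by 0.56, LRRFIP1 fell with senescence by 0.39 and rose 1.26-fold with acetate, and DDX1 fell after depletion by 0.57, on the log2 scale. Of 9 genes that make or degrade mitochondrial RNA, PNPT1, a mitochondrial exoribonuclease, was the 1 that rose with mtDNA (4.95-fold, from 38.9 to 193 CPM), and 0 fell, counts near the 10.7% and 7.4% of all genes (median 0.10). TEFM rose 1.44-fold and REXO2 fell by 0.15 on the log2 scale with senescence. LRPPRC rose 1.35-fold and POLRMT fell by 0.42 after depletion, and REXO2 rose 1.30-fold and LRPPRC fell by 0.37 with acetate. For the 8 members, ratios of Sen (IR) + CCCP to Sen (IR) lay 0.43 higher on the log2 scale in TPM. Whether the smaller falls of listed genes after depletion, such as those of POLRMT and DDX1, hold on that scale was not tested.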

How the data were processed

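RNA of 18 IMR90 libraries was sequenced by the study as polyadenylated RNA. Per the labels the authors used Trimmomatic 0.36, STAR 2.5.2b (GRCh38) and featureCounts from Subread 1.5.2, and deposited raw counts per gene and TPM. How strand was handled for these libraries is not given in the sources used here. Libraries were grouped by their titles, 3 in each of 6 groups, and 0 columns were left without a sample.

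Here the deposited counts were fitted in edgeR 4.0.16 (R 4.3.3; limma 3.58.1): filterByExpr, TMM, 6 group means over all 18 libraries, quasi-likelihood test, Benjamini-Hochberg adjustment over 16994 genes and threshold 0.05. The common biological coefficient of variation was 0.0644. The script was tested on simulated data. DESeq2 1.42.0 and the other alternatives are described in the closing section. Levels between genes are the authors' deposited TPM. Likeness is Pearson's r of log2(CPM + 0.5), with 3 genes named per member. Loci are from GENCODE v44 and promoter windows from RefSeq. Counting error and depth are covered by the fit only as far as the replicates show them.

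The members and lists were chosen with earlier results of these data known. Named beside the members were, from each pathway list, up to 2 largest rises and falls with mtDNA and the largest rise and fall with senescence, depletion and acetate, IFNB1 and the genes most like each member. JAK1, STAT2, IRF9, NLRC5, ZNFX1, ZC3HAV1 and RNF135 were added after their values were seen. Some genes that this rule names are not reported here.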

Additional observations from a re-analysis of the deposited data

Results flagged for a closer look

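TRIM25, the E3 ligase implicated in RIG-I activation, was flagged because its change with mtDNA differed between cells with and without acetate. The difference was -0.69 on the log2 scale (edgeR's interaction term, SE 0.11, adjusted p = 0.0025). Acetate alone raised TRIM25 1.46-fold, mtDNA alone 3.37-fold and mtDNA on top of acetate 2.08-fold, and the levels with mtDNA were 481, 443 and 466 CPM without acetate and 374, 493 and 392 CPM with it. All 26 alternatives gave a negative value past the threshold, from -0.82 to -0.62, with p of at most 0.012.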

How the results depend on the processing

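The 88 values of the members were recomputed as 2277 values under alternatives. With 1 library left out, 21 newly passed the threshold in the same direction, 5 lost it and 1 turned and was called: ADAR in acetate and mtDNA against mtDNA, not called at 0.04, ranged from -0.16 (called, without combination replicate 2) to 0.18. Values called neither with all libraries nor without 1 also changed sign, among them TLR3 in acetate and mtDNA against Sen (IR) + CCCP (0.03 to -0.50) and DHX58 against Sen (IR) (0.15 to -0.38), both without combination replicate 2. Under the other settings 25 newly passed and 13 lost it. With mtDNA against Sen (IR) + CCCP, 7 genes rose and 0 fell when any 1 library was left out. Leaving out 1 library gave 1 to 4 members higher in Sen (IR) against Prol (2 with all), 3 to 5 higher with acetate (3), 2 to 7 lower in acetate and mtDNA against mtDNA (3) and 1 to 6 lower in the interaction (1). DESeq2's Wald test called 2 lower in the interaction, with IFIH1 (-1.82, adjusted p = 0.047) beside TRIM25. Without the filter on low counts, 4 members were higher in Sen (IR), 5 with acetate, 0 higher and 5 lower in acetate and mtDNA against mtDNA, and 5 lower in the interaction. With only the groups compared in the fit, 5 were higher in Sen (IR) and 5 with acetate. The rule of nominal p and a log2 fold change of 0.5 gave 1 higher and 0 lower in Sen (IR), 0 higher after depletion against Sen (IR) and against Prol, 0 higher in acetate and mtDNA against mtDNA and 3 lower in the interaction. DHX58 was not tested when at least 10 counts were required in every library, and its change in acetate and mtDNA against mtDNA missed the threshold with DESeq2 (-0.67, adjusted p = 0.083). In TPM, 3 members had a higher mean after depletion than in Sen (IR) (1 in CPM), 4 than in Prol (1), with TRIM25 turned to 0.25, and 1 in acetate and mtDNA against mtDNA (2). The shares of all genes called in each direction under these settings are not given here, except without combination replicate 2 above. These counts therefore describe the members only. The cause of these differences was not tested.

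Over all genes the interaction gave 112 calls, 284 with DESeq2, 413 without the filter, 622 with the nominal rule, and 55 to 403 without 1 library. The nominal rule gave 5709 calls in place of 9628 for senescence, 7380 in place of 11088 for depletion, 5522 in place of 9709 for acetate, 1758 in place of 3071 for mtDNA, 6460 in place of 10487 for acetate and mtDNA against Sen (IR) + CCCP, 5760 in place of 9748 against mtDNA and 1290 in place of 2136 against acetate, a count that fell to 1241 without acetate replicate 2 and 1296 without acetate replicate 3. With log2(TPM + 1), 13 of the 24 genes most like a member remained.

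No pairing by replicate number was seen, which does not exclude shared cultures or batches. Deviations from the group mean had correlations of -0.17 to 0.15 between same-numbered libraries, with 2 of 45 pairs over 0.1. Between libraries of other numbers they were -0.154 to 0.159, with 4 of 90 pairs over 0.1. Of the 18 libraries, 8 were closest to their own number. A fit with the replicate number as a block changed none of the calls among 88 values, with 7 members higher with mtDNA and the TRIM25 interaction at -0.70 (adjusted p = 8.3e-04). Low counts limit DHX58, TLR3 with acetate, IFNB1 and OASL after depletion.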
